A study of Sus scrofa with 6 samples.

Results

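The motile cilium genes of the piglet lung were read from RNA-seq of whole lung tissue, sampled shortly before and shortly after birth. A gene was included when its pig Ensembl symbol began with DNAH, DNAI, DNAL, DNAAF, CFAP, RSPH or TEKT, or was 1 of a set of named regulators and axonemal genes such as FOXJ1, RFX3, CCNO, DRC1, SPAG6 or SPEF2. Of the 14579 mRNAs in the table, 71 met this rule, 1 of them as ODAD2, the current symbol of the listed ARMC4. A further 34 symbols met the rule but had no matching row, among them DNAH5, DNAI1, RFX2 and MCIDAS, and were not analysed here. All 6 piglets were females of a cross between Tibetan boars and Meishan sows, each from a sow of its own. For the fetal group, 3 of them were sampled on the final day of gestation, and for the neonatal group the other 3 were sampled at an age of 2 days. The 6 piglets thus came from 6 litters, and the p-values measure the spread between these 3 piglets a group. Age, birth itself and the way of delivery (caesarean section or parturition) change together between the groups and cannot be told apart.

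A motile cilium is a microtubule scaffold, the axoneme, on which rows of dynein motors slide neighbouring doublets against each other to make the cilium beat. Outer dynein arms drive the beat, inner arms shape it, and radial spokes and a central pair of microtubules control both. In the lung, such cilia stand on multiciliated cells of the trachea, bronchi and bronchioles and move mucus towards the throat. The forkhead factor FOXJ1 and the RFX factors switch on the genes of the axoneme, and MCIDAS and CCNO act earlier, when the cell multiplies its centrioles to form basal bodies.

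The motile cilium genes were on the whole lower 2 days after birth than on the last fetal day. The mean log2(FPKM + 1) was lower in the neonatal group for 62 of the 71 genes, or 87.3%, against 40.1% of all features of the table. FPKM is fragments scaled by transcript length and by the mapped reads of the library, so levels of different genes can be compared per length. The median log2 fold change (neonatal minus fetal) was -0.37 over the 71 genes and 0.13 over all features. Median-of-ratios scaling moved the median of all features to -0.0090, and that of the motile cilium genes was then -0.50. The 4 genes DNAI4, CFAP52, CFAP100 and RSPH9 fell past the threshold of 0.05 for the adjusted p in limma, and none rose past it, where 1.45% of all features fell and 5.41% rose. Under median-of-ratios scaling CFAP57 and CFAP141 joined them, making 6 of the 71 genes lower against 2.3% of all features, and under quantile normalization CFAP91 did so as well, making 7 against 3.34%. The master regulator FOXJ1, RFX3 and CCNO were not past the threshold. In tissue RNA, fewer multiciliated cells and less RNA per cell cannot be told apart.

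Tests were made on the whole table. Of its 14579 features, 6.87% were past the threshold in either direction. The share of the 71 genes that was past it and lower was 5.63%. At an unadjusted p under 0.05, 16 of the 71 genes were lower and 0 higher, where 6.6% of all features were lower and 2573 of the 14579 higher. All fetal values lay above all neonatal ones in 21 of the 71 genes (29.6%), against 9.64% of all features. No gene of the 71 had all neonatal values above all fetal values, which was the case in 20.9% of all features. The counts of 62 and 21 genes include DNAAF5, and that of 62 also CFAP107, which are in the table only for their value in 1 fetal sample. Among the 69 genes above 0.5 FPKM in at least 1 sample of each group, 60 had a lower neonatal mean (87.0%, against 39.8% of all such features) and 20 had all fetal values on top (29.0%, against 9.54%). These calls rested on few samples. The number of motile cilium genes past the threshold was 0 without Fetal1 or Fetal2, 2 without Fetal3 or Neonatal1 and 1 without Neonatal2 or Neonatal3, while the median log2 fold change stayed between -0.45 and -0.33. Calls over the whole table also dropped, to between 196 and 944, when 1 sample was left out. The summed FPKM of the table was between 339491 and 471220 in the fetal samples and between 491548 and 777982 in the neonatal samples, and read counts per gene are not part of it, so that no counting error could be given.

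**Figure D1:**
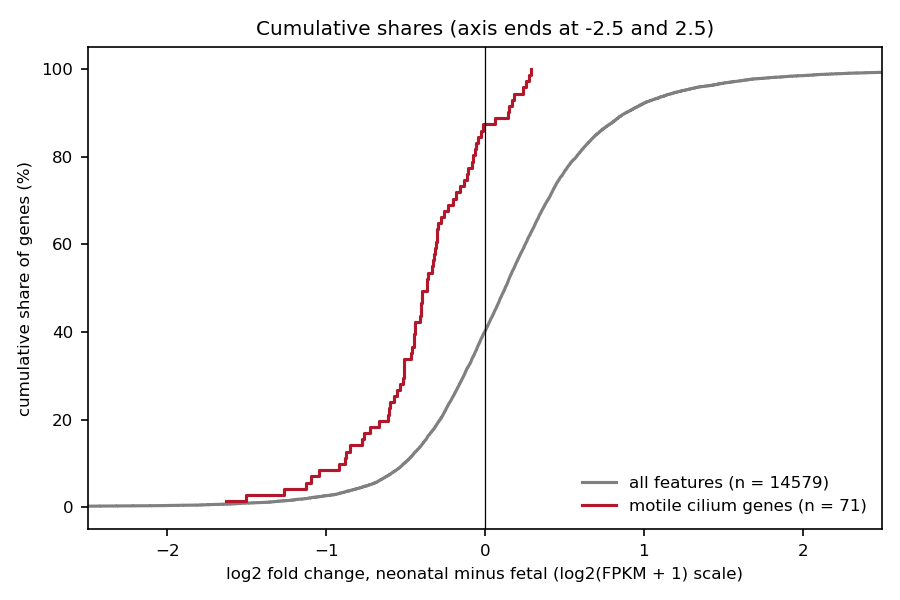
The share of genes (vertical axis, %) at or below each log2 fold change, neonatal minus fetal on the log2(FPKM + 1) scale (horizontal axis), for all 14579 features (grey) and the 71 motile cilium genes (red). The red line runs to the left of the grey one over most of its range and crosses 0 at 87.3%, where the grey line stands at 40.1%.

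All 71 genes had passed the authors' limit of FPKM above 0.5 in at least 1 sample, and 67 were above it in every sample. CFAP107, a protein of the doublet lumen, and DNAAF5, a dynein assembly factor, were above it in 1 fetal sample alone, so that they entered the table only through that group. Samples are given in the order of their numbers, as Fetal1, Fetal2 and Fetal3 and as Neonatal1, Neonatal2 and Neonatal3. CFAP107 was measured at 1.82, 0 and 0 FPKM before birth and 0.223, 0 and 0 FPKM after it, where 0 means that the gene was listed at 0. DNAAF5 was measured at 0.0467, 0.0757 and 0.697 FPKM before birth and 0.0158, 0 and 0 FPKM after it. Levels spanned a wide range: 11 genes had a mean of at least 10 FPKM over the 6 samples, 45 lay from 2 to under 10 FPKM and 15 lay under 2 FPKM.

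None of the 3 measured regulators was past the threshold at an adjusted or an unadjusted p of 0.05. FOXJ1, without which motile cilia do not form, was the highest of all 71 genes. It was measured at 67.1, 53.2 and 39.2 FPKM before birth and 40.9, 38.8 and 45.7 FPKM after it. Fetal1 and Fetal2 lay above every neonatal value, but Fetal3 fell inside the neonatal range. The group means were 53.2 ± 14.0 and 41.8 ± 3.52 FPKM (SD, n = 3 each), and the log2 fold change was -0.31 (standard error 0.23, limma adjusted p = 0.449). Its 95% interval ran from -0.85 to 0.23 and thus held the median change of the 71 genes as well as 0. RFX3, which binds the promoters of ciliary genes, was measured at 6.46, 4.75 and 4.34 FPKM before birth and 6.09, 6.16 and 5.58 FPKM after it. The log2 fold change of RFX3 was 0.18 (limma adjusted p = 0.604, interval from -0.28 to 0.64). CCNO, a cyclin-like protein needed for the mass production of centrioles, was measured at 4.57, 4.56 and 2.35 FPKM before birth and 4.88, 3.16 and 4.79 FPKM after it. Its log2 fold change of 0.15 (limma adjusted p = 0.769) turned to -0.10 without Fetal3, whose value was the lowest of the 6.

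**Figure D2:**
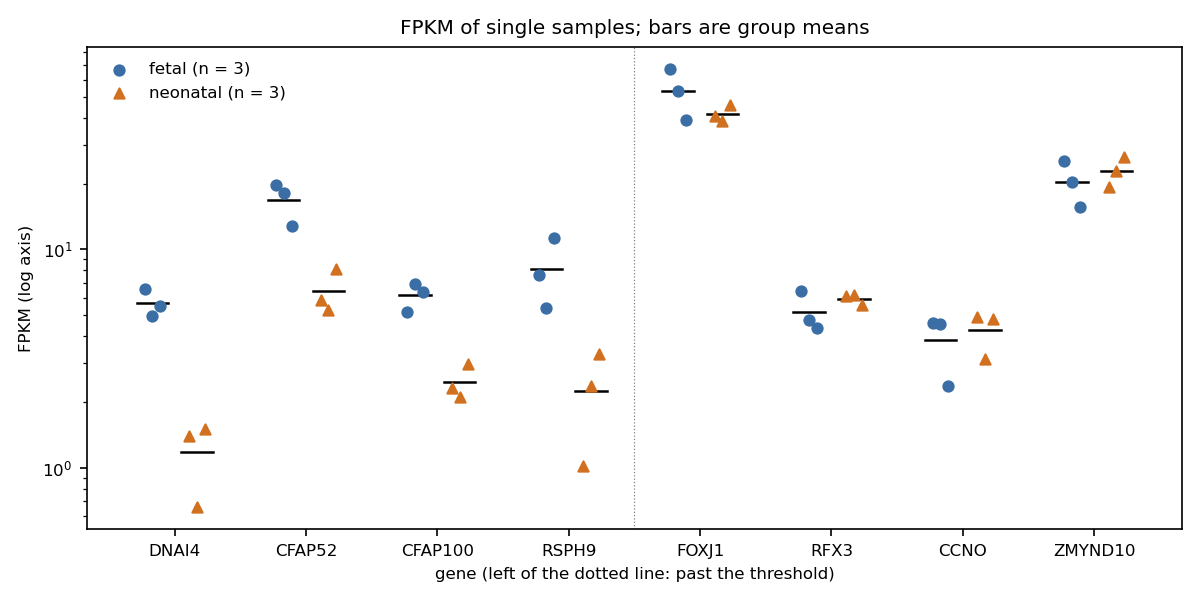
FPKM (vertical axis, log scale) of the 4 genes past the threshold and of 4 that were not, FOXJ1, RFX3, CCNO and ZMYND10, with 1 point per piglet and a bar at the mean of each group of 3. The fetal circles stand above the neonatal triangles for DNAI4, CFAP52, CFAP100 and RSPH9 and overlap with them for FOXJ1, RFX3, CCNO and ZMYND10.

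Dynein heavy chains carry the motor domain of the arms. All 6 that were measured had a lower neonatal mean, and 0 were past the threshold (1 at an unadjusted p under 0.05). DNAH11, an outer arm chain of the proximal cilium, was the most abundant, at 8.36, 10.5 and 4.77 FPKM before birth and 7.26, 3.49 and 4.69 FPKM after it. Neonatal1 stood above Fetal3, so the groups overlapped, and the log2 fold change was -0.52 (limma adjusted p = 0.374). DNAH9, the outer arm chain of the distal cilium, had 3.59 ± 0.868 FPKM before and 3.15 ± 0.335 FPKM after birth (SD, n = 3 each), a log2 fold change of -0.13. Among the inner arm chains, the changes ran from -0.76 for DNAH12 to -0.40 for DNAH1, with DNAH10 at -0.51 and DNAH2 at -0.46. DNAH12, a single-headed chain, was measured at 3.26, 3.94 and 1.84 FPKM before birth and 1.62, 0.968 and 1.37 FPKM after it. It was the only heavy chain whose groups did not overlap, at an unadjusted p of 0.0212 and a limma adjusted p of 0.133. In all 6 heavy chains Fetal3 was the lowest of the fetal samples.

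Intermediate chains tie the heavy chains to the doublet. DNAI4, also called WDR78 and an intermediate chain of the inner arm that carries DNAH2 and DNAH10, had the most negative log2 fold change of the 71 genes on the log2(FPKM + 1) scale. The ratio of means was larger in DNAAF5 and CFAP107, which were listed at 0 in some samples. It was measured at 6.58, 4.97 and 5.51 FPKM before birth and 1.39, 0.658 and 1.50 FPKM after it. Every fetal value was more than 3 times every neonatal one. The mean fell from 5.69 ± 0.820 to 1.18 ± 0.458 FPKM (SD, n = 3 each), a ratio of 4.80 and a log2 fold change of -1.63 (standard error 0.23, limma adjusted p = 0.00994). The adjusted p was 0.0540 without Fetal1 and 0.0565 without Fetal2, and at most 0.0427 without any 1 of the other samples. DNAI3, its partner chain in the same arm (WDR63), was measured at 9.04, 10.0 and 8.58 FPKM before birth and 5.60, 5.42 and 7.27 FPKM after it. The groups did not overlap for DNAI3 either, but the log2 fold change was -0.53 (standard error 0.18, limma adjusted p = 0.134). DNAI2, an intermediate chain of the outer arm, had a log2 fold change of -0.88 (limma adjusted p = 0.116), again without overlap, from 6.73 ± 2.23 to 3.12 ± 0.852 FPKM (SD, n = 3 each). DNAL4, a light chain, had overlapping groups and a log2 fold change of -0.15.

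Cytoplasmic factors fold the dynein arms and put them together before they enter the cilium. Of 11 measured, 9 had a lower neonatal mean, with a median log2 fold change of -0.064. The 9 include DNAAF5, which is in the table only for its value in 1 fetal sample. Of the 11, 0 were past the threshold at an adjusted or an unadjusted p of 0.05. ZMYND10 was the most abundant assembly factor, at 25.3, 20.3 and 15.6 FPKM before birth and 19.2, 22.8 and 26.5 FPKM after it. The log2 fold change of ZMYND10 was 0.17 (limma adjusted p = 0.680), and it changed sign under median-of-ratios scaling, under quantile normalization and without Fetal3. DNAAF11 (LRRC6), which binds ZMYND10, had means of 10.3 ± 0.904 and 10.1 ± 3.03 FPKM (SD, n = 3 each) and a log2 fold change of -0.058. DNAAF6 had the lowest p of the assembly factors, at 3.85, 3.38 and 3.93 FPKM before birth and 3.13, 2.03 and 2.29 FPKM after it, with a log2 fold change of -0.45 (limma adjusted p = 0.222). DNAAF4 was similar in size, at -0.44, also without overlap. At the other end, CFAP300, also an assembly factor, had a log2 fold change of 0.26. Whether assembly factors changed less than the dynein chains was not tested.

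**Figure D3:**
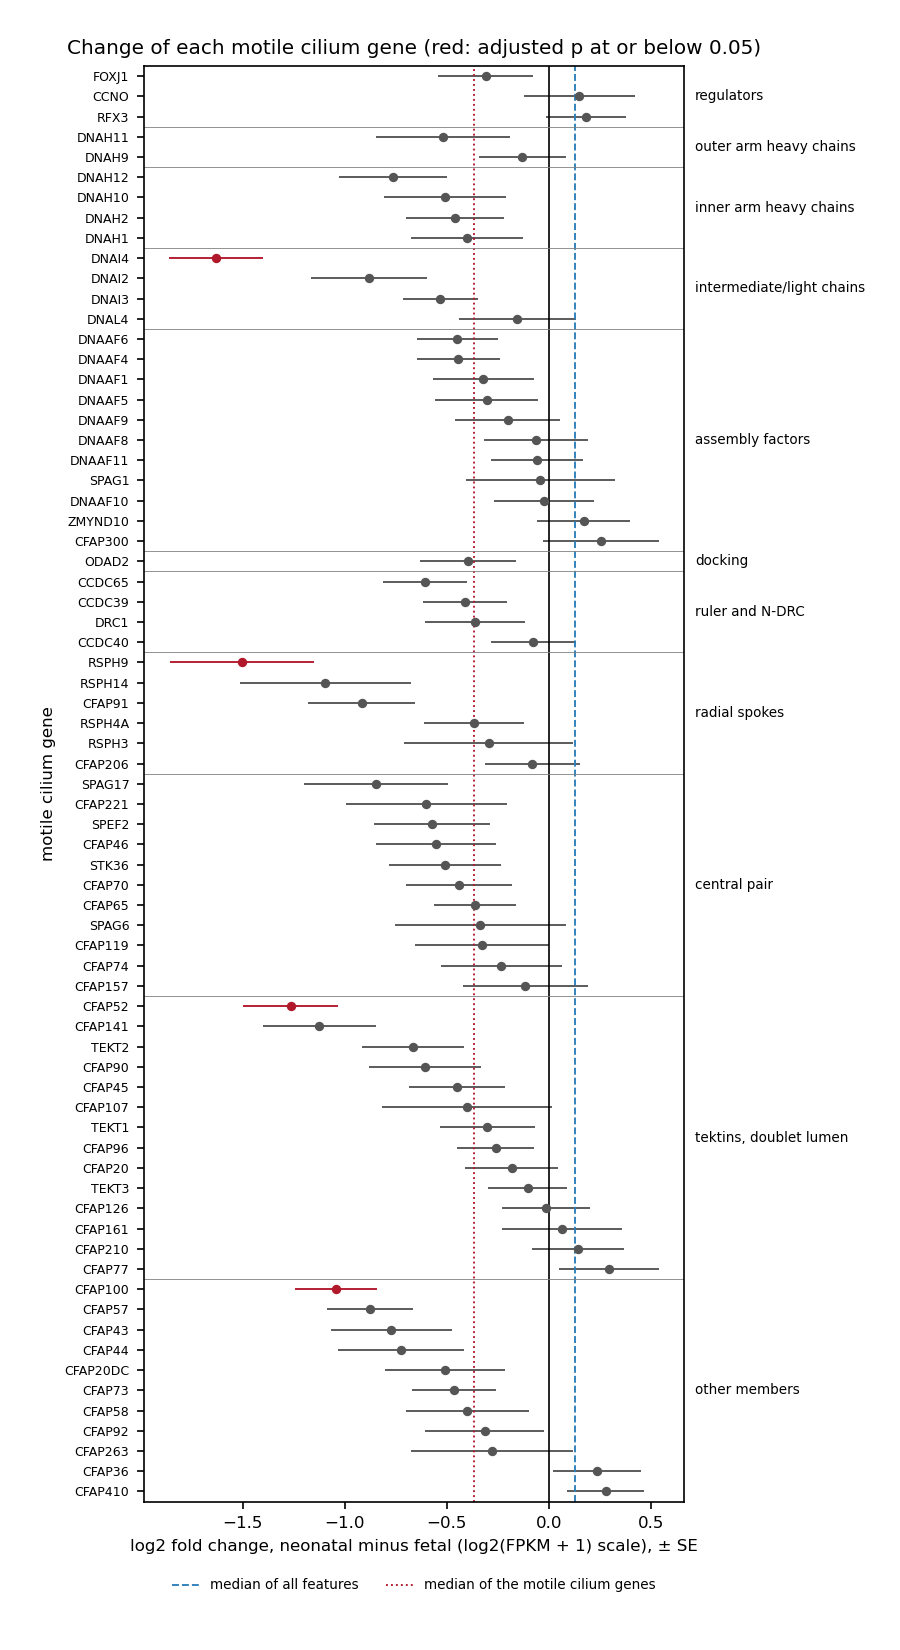
Log2 fold change (horizontal axis, neonatal minus fetal on the log2(FPKM + 1) scale) of the 71 motile cilium genes (vertical axis, in order of role) with bars of 1 standard error. The 4 genes in red were past the threshold, the dotted line is the median of the 71 genes at -0.37, and the dashed line is the median of all features at 0.13.

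Outer arms dock on the doublet through a complex of which ODAD2 (ARMC4) was the measured part. ODAD2 was measured at 16.2, 16.8 and 10.5 FPKM before birth and 12.1, 8.66 and 11.2 FPKM after it. Fetal1 and Fetal2 exceeded all neonatal values and Fetal3 did not, with a log2 fold change of -0.40 (limma adjusted p = 0.338). CCDC39 and CCDC40 form the ruler that sets the repeat along the doublet, and DRC1 and CCDC65 (DRC2) build the base of the nexin-dynein regulatory complex, the elastic link between doublets. All 4 had a lower neonatal mean, and 0 were past the threshold (1 at an unadjusted p under 0.05). CCDC65 was measured at 5.09, 4.64 and 3.94 FPKM before birth and 3.37, 2.39 and 2.23 FPKM after it, without overlap, and had a log2 fold change of -0.61 (limma adjusted p = 0.128). The log2 fold change of its partner DRC1, the most abundant of the 4, was -0.36, and the groups overlapped. CCDC39 had no overlap and a log2 fold change of -0.41, whereas that of CCDC40 was -0.077, at means of 0.890 ± 0.304 and 0.778 ± 0.0996 FPKM (SD, n = 3 each).

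Radial spokes reach from the doublet to the central pair. All 6 measured genes had a lower neonatal mean, and 1 was past the threshold. RSPH9, a protein of the spoke head, was measured at 7.60, 5.38 and 11.3 FPKM before birth and 1.02, 2.37 and 3.33 FPKM after it. No values overlapped, although Fetal3 was high and Neonatal1 low. The mean fell from 8.09 ± 2.99 to 2.24 ± 1.16 FPKM (SD, n = 3 each), a log2 fold change of -1.50 (standard error 0.35, limma adjusted p = 0.0483). RSPH9 was close to the threshold, with an adjusted p of 0.0513 at a pseudocount of 0.5, 0.0515 without a variance trend and from 0.0833 to 0.142 when any 1 sample was dropped. Its partner in the spoke head, RSPH4A, was the most abundant spoke gene, at 17.8, 19.0 and 15.0 FPKM before birth and 10.6, 18.8 and 11.2 FPKM after it. Neonatal2 reached the fetal range, and the log2 fold change of RSPH4A was -0.37 (limma adjusted p = 0.397). CFAP91, at the base of the spokes, went from 4.80 ± 1.72 to 1.98 ± 0.285 FPKM (SD, n = 3 each) without overlap, and its log2 fold change was -0.92 (limma adjusted p = 0.0859). RSPH14 had a log2 fold change of -1.10, but this was -0.58 without Neonatal2, where it was lowest.

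The central pair apparatus sets the plane and rhythm of the beat. All 11 measured genes had a lower neonatal mean, 0 were past the threshold (1 at an unadjusted p under 0.05), and the median log2 fold change was -0.44. SPAG17 had the lowest p of these genes, at 5.84, 5.33 and 2.73 FPKM before birth and 3.48, 1.08 and 1.97 FPKM after it. Neonatal1 stood above Fetal3, and the log2 fold change was -0.85 (standard error 0.35, limma adjusted p = 0.195). SPAG6, a partner of SPAG17 and the most abundant of the 11, was measured at 10.4, 10.6 and 3.57 FPKM before birth and 6.68, 3.57 and 7.61 FPKM after it. Fetal3 and Neonatal2 were equally low, and the log2 fold change was -0.34 with a standard error of 0.42. SPEF2, CFAP46 and CFAP70 had log2 fold changes of -0.57, -0.55 and -0.44, and in each the value of Fetal3 lay inside the neonatal range. CFAP65 and STK36, a kinase needed for the central pair, did not follow this. In both, no values overlapped, with log2 fold changes of -0.36 and -0.51 (limma adjusted p = 0.312 and 0.300). CFAP221 was low, at 1.56, 1.49 and 0.0535 FPKM before birth and 0.0476, 0.0971 and 0.676 FPKM after it, and Fetal3 was 0.0351 times the mean of Fetal1 and Fetal2.

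Tektins and other proteins line the inside of the doublets and stiffen them. Of 14 measured, 11 had a lower neonatal mean and 1 was past the threshold. The 11 include CFAP107, which is in the table only for its value in 1 fetal sample. CFAP52, a protein of the inner junction of the doublet, was measured at 19.7, 18.1 and 12.8 FPKM before birth and 5.86, 5.27 and 8.11 FPKM after it. The lowest fetal value was above the highest neonatal one. The mean fell from 16.8 ± 3.59 to 6.42 ± 1.50 FPKM (SD, n = 3 each), a ratio of 2.63 and a log2 fold change of -1.26 (standard error 0.23, limma adjusted p = 0.0232). The adjusted p of CFAP52 was 0.0407 without Fetal3 and between 0.0514 and 0.118 without Fetal1, Fetal2, Neonatal1, Neonatal2 or Neonatal3. CFAP45, which pairs with CFAP52 on the doublet wall, was measured at 11.8, 8.92 and 10.7 FPKM before birth and 6.60, 10.2 and 5.86 FPKM after it. Neonatal2 lay within the fetal range, and the log2 fold change of CFAP45 was -0.45 (limma adjusted p = 0.288). CFAP141 had a log2 fold change of -1.12 without overlap, and its limma adjusted p of 0.0548 was just above the threshold.

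Among the tektins, the filament-forming proteins of the doublet, the log2 fold change was -0.67 for TEKT2, -0.30 for TEKT1 and -0.11 for TEKT3. TEKT2 was measured at 14.8, 9.65 and 8.08 FPKM before birth and 5.33, 7.48 and 6.12 FPKM after it, without overlap but with a limma adjusted p of 0.161. CFAP90 had a log2 fold change of -0.61, with 21.3 ± 4.38 and 14.0 ± 4.89 FPKM (SD, n = 3 each) and Neonatal3 inside the fetal range. CFAP126, the second most abundant of the 71 genes, was measured at 34.2, 25.2 and 25.3 FPKM before birth and 22.3, 30.7 and 30.7 FPKM after it. Its log2 fold change was -0.014, with an interval from -0.51 to 0.49, and became 0.13 without Fetal1 or Neonatal1. CFAP77 had the largest log2 fold change above 0 of all 71 genes, at 0.29 (standard error 0.25, limma adjusted p = 0.502), with overlapping values of 4.25, 2.77 and 2.13 FPKM before birth and 3.26, 3.87 and 4.49 FPKM after it.

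The other 11 measured genes had mixed or less defined roles, and 9 had a lower neonatal mean. CFAP100, which with CFAP73 forms a complex that modifies the inner arms, was measured at 5.15, 6.91 and 6.40 FPKM before birth and 2.32, 2.10 and 2.99 FPKM after it. The fetal samples lay between 5.15 and 6.91 FPKM, well above all neonatal samples. The mean fell from 6.15 ± 0.902 to 2.47 ± 0.461 FPKM (SD, n = 3 each), a ratio of 2.49 and a log2 fold change of -1.04 (standard error 0.20, limma adjusted p = 0.0261). When any 1 sample was dropped, its adjusted p was 0.0579 to 0.125. CFAP73 had a log2 fold change of -0.46, with values of 5.28, 4.94 and 6.63 FPKM before birth and 3.09, 4.61 and 3.71 FPKM after it that did not overlap. CFAP57, which holds inner arm dyneins on the doublet, had a log2 fold change of -0.88 and a limma adjusted p of 0.0522, with 2.24 ± 0.344 and 0.772 ± 0.273 FPKM (SD, n = 3 each). Without Neonatal1 the adjusted p of CFAP57 was 0.0485. CFAP43 and CFAP44, which tether an inner arm to the doublet, had log2 fold changes of -0.77 and -0.73. Above 0 were CFAP410, at 0.28 (limma adjusted p = 0.405), and CFAP36, at 0.24. Both are also made in cells without motile cilia, and whether this bears on their direction was not tested.

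A set of 9 of these genes was grouped around dynein f, the inner arm with a pair of motor heads. In it were DNAH2, DNAH10, DNAI3, DNAI4, CFAP43, CFAP44, CFAP73 and CFAP100, of the arm, its tether or its modifiers. CFAP57, which holds inner arm dyneins on the doublet, was placed with them. The set was put together after the values had been seen and is given as a description. All 9 had a lower neonatal mean, against 40.1% of all features, with a median log2 fold change of -0.73. In 5 the groups did not overlap, where 9.64% of all features were lower without overlap. Because of how the set was chosen, these counts cannot show that this arm changed more than other parts of the cilium. DNAI4 and CFAP100 were the 2 past the threshold. The motor subunits DNAH2 and DNAH10 had values of 2.02, 2.55 and 1.82 FPKM before birth and 1.94, 0.868 and 1.11 FPKM after it, and of 2.91, 3.001 and 1.45 FPKM before birth and 2.21, 1.22 and 0.862 FPKM after it, respectively. Neither was past the threshold (limma adjusted p = 0.284 and 0.334).

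The fetal samples differed among themselves in a way that recurred across the motile cilium genes. For each gene, the log2(FPKM + 1) of a sample was set against the mean of the 6 samples, and the median over the 71 genes was taken. It was 0.29, 0.26 and -0.085 in the fetal piglets, in the order of their numbers. In the neonatal piglets it was -0.13, -0.23 and -0.24. On these medians Fetal3 lay closer to the neonatal samples than to the other fetal ones. The same medians over all features were -0.011, -0.12 and -0.098 in the fetal and -0.017, 0.067 and 0.14 in the neonatal piglets. The medians of the motile cilium genes were not corrected for these, so the place of Fetal3 may depend on the scaling. Fetal3 was the lowest fetal sample in 47 of the 71 genes, against 5436 of all 14579 features. Fetal1 was above every neonatal value in 54 genes, Fetal2 in 49 and Fetal3 in 24, and in 15 genes Fetal3 was below every neonatal value. The shares of all features for these 4 counts were not computed, so the counts alone do not set these genes apart from others. The median log2 difference between Fetal3 and the mean of Fetal1 and Fetal2 was -0.37 over the 71 genes and -0.017 over all features. By role, it was -0.70 for the central pair genes and -0.61 for the inner arm heavy chains, but -0.12 for the radial spokes and 0.086 for the 11 genes of mixed or less defined roles, where Fetal3 was the lowest fetal sample in 4. Without Fetal3, 66 of the 71 genes had a lower neonatal mean and the median log2 fold change was -0.45. The number with a lower neonatal mean was 53 without Fetal1 and 59 without Fetal2. It was 57 without Neonatal1, 60 without Neonatal2 and 62 without Neonatal3.

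**Figure D4:**
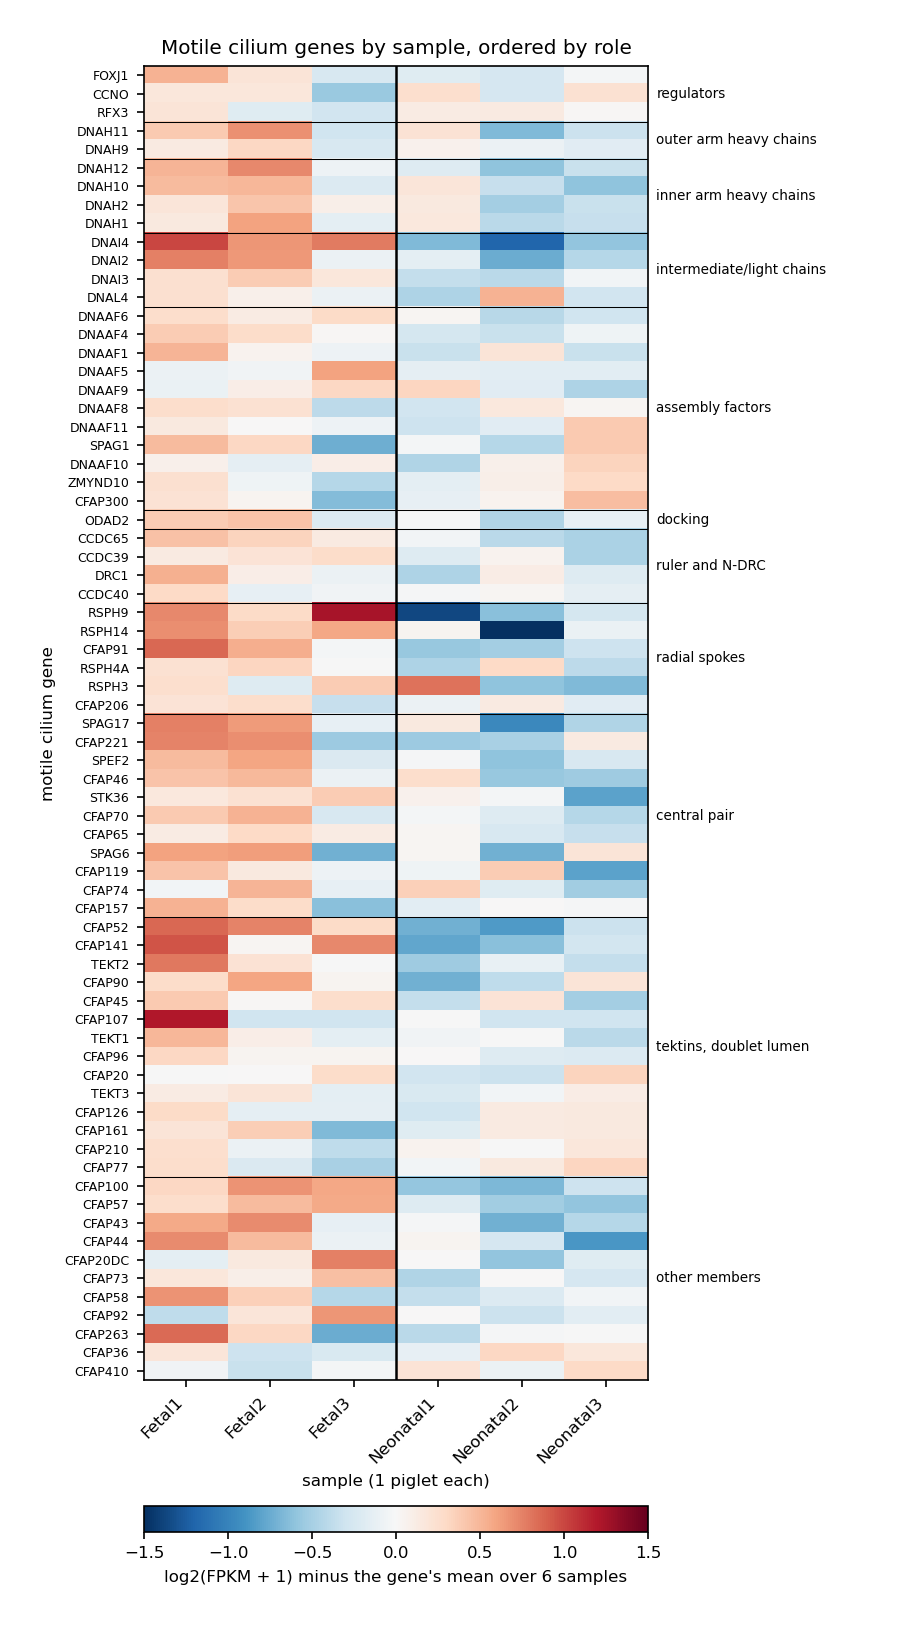
Log2(FPKM + 1) of the 71 motile cilium genes (rows, grouped by role) in the 6 samples (columns), with the mean of each gene over the 6 samples subtracted. Red is above and blue below that mean, and Fetal1 and Fetal2 are mostly red while Fetal3 is red for DNAI4, RSPH9 and CFAP100 and blue for SPAG6 and SPAG1.

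The weight of Fetal3 differed from gene to gene. In DNAI4 and CFAP100 Fetal3 was 0.955 and 1.06 times the mean of Fetal1 and Fetal2, and in RSPH9 it was 1.74 times that mean. In SPAG6, SPAG1 and CFAP263 it was 0.339, 0.388 and 0.236 times that mean, and the groups overlapped. SPAG1, an assembly factor, was measured at 8.37, 7.36 and 3.05 FPKM before birth and 5.60, 3.99 and 7.79 FPKM after it, with a log2 fold change of -0.043.

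Genes of cilia outside the rule were read from lists. A list of 64 other genes of multiciliated cells had 44 measured, of which 35 had a lower neonatal mean (79.5%, against 40.1% of all features). In 10 of the 44 (22.7%), all fetal values lay above all neonatal ones, against 9.64% of all features. The median log2 fold change was -0.29, and 1 gene fell past the threshold and 0 rose. The gene that fell was ADGB, androglobin, a protein of ciliated cells and sperm, at 5.50, 6.38 and 4.81 FPKM before birth and 2.63, 2.12 and 2.40 FPKM after it (log2 fold change -0.95, limma adjusted p = 0.0290). Its adjusted p was 0.0486 without Neonatal1 and between 0.0593 and 0.130 without any 1 of the other samples. ROPN1L, a radial spoke protein, was among the most abundant genes of this list and lay at 51.3, 43.5 and 40.4 FPKM before birth and 40.3, 38.5 and 59.9 FPKM after it, a log2 fold change of 0.015. The median deviation of this list from its mean over the samples was 0.37, 0.25 and -0.14 in Fetal1, Fetal2 and Fetal3. Without a correction for the medians of all features, Fetal3 was again near the neonatal samples.

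Intraflagellar transport builds motile and primary cilia alike. Of 24 measured genes of this machinery, 17 had a lower neonatal mean (70.8%, against 40.1% of all features). The median log2 fold change was -0.28, and 0 were past the threshold at an adjusted p and 0 at an unadjusted p under 0.05. Of 25 measured genes of the BBSome and the transition zone, which sort proteins into cilia, 17 had a lower neonatal mean (68.0%). All fetal values lay above all neonatal ones in 7 of these 25 (28.0%), beside 29.6% of the motile cilium genes. This was so in 3 of the 24 intraflagellar transport genes (12.5%) and in 9.64% of all features. Fetal3 was the lowest fetal sample in 14 of these 24 and in 13 of the 25, against 5436 of all 14579 features. Of the 25 BBSome and transition zone genes, 0 were past the threshold. At an unadjusted p under 0.05, 6 of them were lower, against 6.6% of all features, and 0 higher. BBS7 and TCTN2 came closest, at log2 fold changes of -0.73 and -0.68 (limma adjusted p = 0.0744 and 0.0767), and with TMEM67 they were past the threshold under median-of-ratios scaling. Of 15 measured genes of centriole amplification, 5 had a lower neonatal mean and 10 a higher one. The median log2 fold change of this list was 0.083, below the median of all features. TFDP1, a partner of E2F factors that also serves the cell cycle, rose by 0.93 on the log2 scale (limma adjusted p = 0.0347), with means of 4.82 ± 1.02 before and 9.97 ± 0.613 FPKM after birth (SD, n = 3 each). The adjusted p of TFDP1 was above the threshold with any 1 sample left out. GMNC and DEUP1, which are used in multiciliated cells, had log2 fold changes of 0.0064 and 0.071.

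**Figure D5:**
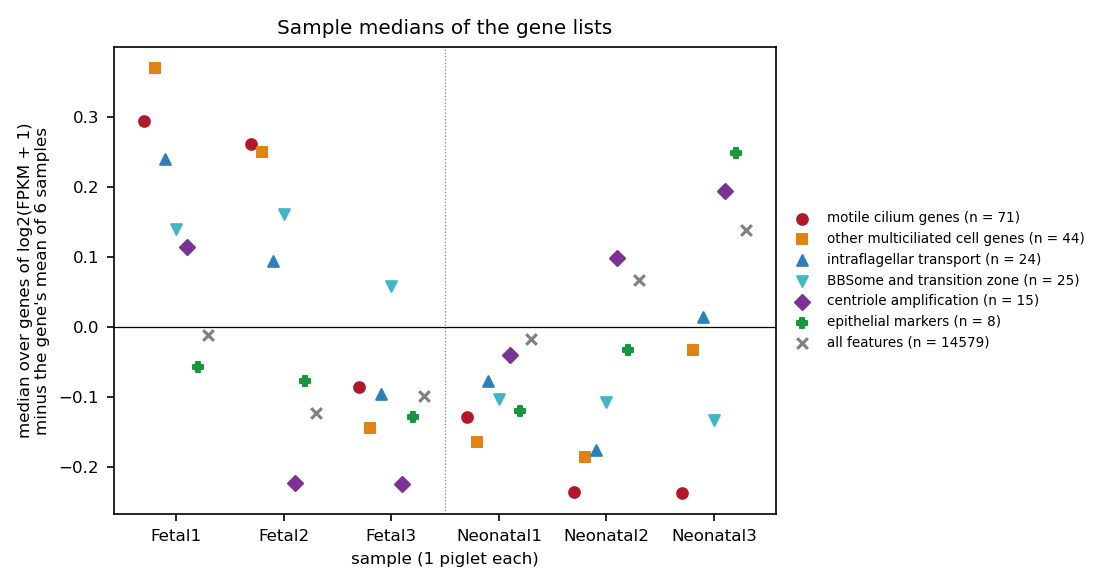
Median over the genes of each list of log2(FPKM + 1) minus the gene's mean of the 6 samples (vertical axis), for each sample (horizontal axis). The motile cilium genes (red circles) and other multiciliated cell genes (orange squares) are high in Fetal1 and Fetal2 and below 0 in the other 4 samples. The intraflagellar transport genes stand at 0.24, 0.095 and -0.095 in Fetal1, Fetal2 and Fetal3. Those of the BBSome and transition zone stand at 0.14, 0.16 and 0.059, and epithelial markers (green) lie between -0.13 and 0.25 over all samples.

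Markers of the tissue around the ciliated cells were read in the same way. The summed FPKM of the 71 motile cilium genes was between 406 and 558 in the fetal and between 349 and 391 in the neonatal samples. Over 8 measured general epithelial markers the sum moved the other way, from between 352 and 393 to between 421 and 576 FPKM. The summed FPKM of the whole table also rose, from a mean of 411994 to 624429. Of the 8 epithelial markers, 0 were past the threshold, and the neonatal means were lower for 4 and higher for 4. The median log2 fold change of the 8 was 0.054, against 0.13 over all features. Of 9 measured markers of airway secretory cells, 4 had a lower and 5 a higher neonatal mean, with log2 fold changes from -2.82 to 2.17. Of all features, 1.45% fell and 5.41% rose past the threshold. Of these 9 markers, 0 fell and 3 rose past it (BPIFB1, LTF and PIGR, antimicrobial or transport proteins of the airway surface). Their log2 fold changes were 2.17, 1.58 and 1.43 (limma adjusted p = 0.0149, 0.0328 and 0.0485). SCGB1A1, the club cell secretoglobin, was measured at 139, 119 and 99.8 FPKM before birth and 62.2, 0.213 and 62.0 FPKM after it, and TFF3 was listed at 0 in every sample but Neonatal3. The sum of this list was between 2438 and 7193 FPKM in the fetal and between 1244 and 3452 FPKM in the neonatal samples, most of it SCGB3A2.

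All 5 smooth muscle markers had a higher neonatal mean, as did 8729 of all 14579 features. ACTG2 and CNN1 were past the threshold, where 5.41% of all features rose past it. The log2 fold changes of these 2 genes were 2.35 and 2.10 (limma adjusted p = 0.00541 and 0.0102). The sum of the 5 markers was between 98.8 and 187 FPKM before birth and between 278 and 337 FPKM after it. The 3 measured basal cell markers summed to between 2.72 and 6.03 FPKM over the 6 samples with overlapping groups, and the sums of 9 cartilage markers overlapped, between 22.7 and 43.5 FPKM in the fetal and between 28.7 and 37.7 FPKM in the neonatal samples. Of 7 measured alveolar type II, 4 alveolar type I, 4 endothelial, 5 mesenchymal and 5 immune markers, 0 were past the threshold. The sums of type II and of mesenchymal markers were higher in every neonatal than in every fetal sample, as was that of the whole table. Those of type II lay at 4509 to 5122 and 5811 to 10684 FPKM, and the sums of the other 3 lists overlapped. The part of cell composition and of the sampled region of the lung in the lower level of the motile cilium genes was not tested.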

How the data were processed

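RNA-seq of whole lung was made from 3 fetal and 3 neonatal piglets with strand-specific libraries after removal of ribosomal RNA. The authors aligned reads with TopHat2 (2.1.0) to the pig genome Sscrofa10.2, computed FPKM with Cufflinks (2.2.1) and deposited mRNAs above 0.5 FPKM in at least 1 sample. A separate lncRNA table was not used here. All 6 value columns were matched to samples by name. Ensembl gene identifiers were given symbols from a reference table, which matched 9478 of 14579. The table holds no read counts per gene, so no count model was run, and the library totals that the study gives were not used. The values were tested as log2(FPKM + 1) with limma (3.58.1) and a variance trend, neonatal against fetal, on all 14579 features with Benjamini-Hochberg adjustment over all of them and a threshold of 0.05. All fold changes are on this scale, which understates changes of low genes. The genes, roles and lists were chosen with earlier results of these data known. Named were the genes past the threshold, the measured regulators, in each role the gene with the lowest adjusted p and the most abundant one, the largest rise and the ends of ranges. Other named genes were chosen after their values were seen. Alternatives were other pseudocounts (0.5 and 0.1), a stricter filter, 2 other scalings, no variance trend, a replicate block, each sample left out in turn and, chosen after seeing the data, ODAD2 left out and genes above 0.5 FPKM in both groups alone. Figures and tables were made with Python (3.11.15), pandas (2.3.3) and matplotlib (3.10.9).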

Additional observations from a re-analysis of the deposited data

How the results depend on the processing

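The motile cilium genes kept a negative median log2 fold change in every alternative, from -0.51 under quantile normalization to -0.33 without Fetal2. The number past the threshold did not hold. It was 4 lower in the analysis reported and 7 under quantile normalization, 1 with a replicate block and 0 to 2 with 1 sample left out, and the other settings gave 3 to 6. Without a variance trend, with the 72 genes including CFAP47, with ODAD2 left out or with the 69 genes above 0.5 FPKM in both groups, it was again 4. Of all features past the threshold, 212 of 1001 were lower, against 335 of 985 under median-of-ratios scaling and 487 of 1158 under quantile normalization. The block gave 401 features past the threshold. The replicate numbers did not pair the samples (correlations of -0.0407, -0.00434 and 0.000466 for numbers 1, 2 and 3).

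The number of other multiciliated cell genes past the threshold was 2 under the stricter filter, 4 under median-of-ratios scaling, 5 under quantile normalization, 0 with the block and 0 to 1 with 1 sample left out. For intraflagellar transport, the median log2 fold change was -0.43 under median-of-ratios scaling and -0.43 under quantile normalization, and 0 to 1 genes were past the threshold with 1 sample left out. For the BBSome and transition zone, 3 genes were past the threshold under median-of-ratios scaling and 3 under quantile normalization. The median of that list was -0.31 and -0.29 under these scalings, -0.21 at a pseudocount of 0.1 and between -0.25 and -0.17 with 1 sample left out. For centriole amplification, 2 genes were past the threshold under quantile normalization, 0 with the block and 0 to 1 with 1 sample left out. ZMYND10 changed sign to -0.00061 under median-of-ratios scaling, and -0.077 under quantile normalization. With 1 sample left out, its log2 fold change ran from -0.00016 without Fetal3 to 0.33, that of CFAP126 from -0.088 to 0.13 (without Fetal1 or Neonatal1) and that of CCNO from -0.095 without Fetal3 to 0.31. Over the genes named by rule, 139 values kept direction and side of the threshold under settings with all samples, 6 were no longer past it and 2 changed sign, and with 1 sample left out 103 kept both, 19 were no longer past it and 4 changed sign. Of the genes named after their values were seen, CFAP57 was past the threshold under both other scalings, the stricter filter, no variance trend and without Neonatal1, CFAP141 under both scalings and the stricter filter, and CFAP91 under quantile normalization. The cause of these differences was not tested. With no read counts per gene, the counting error of low genes was not computed.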

Other observations

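CFAP47, a protein of the central pair, was named only by a list of the study that held genes already called different, and was left out of the 71 genes. Its values were 3.72, 5.57 and 2.56 FPKM before birth and 2.31, 1.59 and 1.46 FPKM after it, without overlap, with a log2 fold change of -0.79 (limma adjusted p = 0.132).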
